A study of Mus musculus with 29 samples.

Results

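The 9 genes below belong to the brain's vessel wall and were followed across 29 mouse expression arrays: Abcb1a, Slc2a1, Cldn5, Pltp, Cxcl12, Epas1, Rgs5, Abcc9 and Acta2. Each was found by its symbol in the annotation of the array, where a gene is read by 1 or more probe sets, groups of short probes for the same transcript. The 9 genes have 18 probe sets among the 22626 tested, and are 9 of the 12393 genes that carry a probe set with a single symbol. Where a gene has several, the probe set with the highest mean over all arrays stands for it and the others are given beside it. All values are log2 signals, so a difference of 1 is a doubling, and levels are compared only within a probe set, never between genes.

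The study measured total RNA of the prefrontal cortex (PFC, 18 arrays) and the caudate-putamen (CPu, 11 arrays), the dorsal striatum. All mice were on the FVB/N background: the parent strain FVB/N itself, TgS mice, which express the human acetylcholinesterase variant AChE-S, and TgR mice, which express human AChE-R. The exposed arm received MPTP, the precursor of a toxin of dopamine neurons, as 4 doses of 20 mg/kg given every 2 h (a total of 80 mg/kg), with dissection 4 days later. The labels give 6 MPTP and 6 saline mice per strain, 36 in total; the unexposed arrays are called naive. The labels do not say whether these are the saline mice, how many animals each array pools, or the animals' age. The naive PFC has 4 arrays per strain, MPTP-exposed TgR CPu has 1, and each of the other groups (naive and MPTP FVB/N, TgS and TgR in the remaining combinations) has 2. One FVB/N array of the CPu is called naive in its title, source and treatment fields and exposed in its description, and was taken as naive. The labels name no promoter for the transgenes. Because nothing states that arrays of a group come from separate mice, p-values measure the spread between these arrays, which may be technical.

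Brain capillaries are lined by endothelial cells joined by tight junctions, and these cells exchange substances with the blood mainly through transporters in their membranes. Pericytes and, on larger vessels, smooth muscle cells wrap the endothelium and are together called mural cells. Slc2a1 encodes the glucose transporter GLUT1, Abcb1a the efflux pump P-glycoprotein, and Cldn5 claudin-5, the main claudin of the endothelial tight junction. Pltp encodes phospholipid transfer protein, which moves phospholipids between lipoproteins, and Cxcl12 the chemokine that acts through Cxcr4. Epas1 encodes HIF-2alpha, an oxygen-regulated transcription factor abundant in endothelium. Rgs5, a regulator of G-protein signalling, and Abcc9, the SUR2 subunit of an ATP-sensitive potassium channel, are used as pericyte markers, and Acta2 is the actin of vascular smooth muscle. RNA was taken from whole tissue, so fewer vessel cells and less RNA per cell cannot be told apart. Abcb1a has a close paralog, Abcb1b, and an actin probe set may read related actins, so these signals may include RNA of a relative.

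In the RefSeq annotation of the mouse genome build GRCm38.p6 the genes lie at chr5:8567091-8748575 (Abcb1a), chr4:119108745-119137330 (Slc2a1), chr16:18776847-18778262 (Cldn5), chr2:164839518-164857708 (Pltp), chr6:117168535-117181368 (Cxcl12), chr17:86753864-86833410 (Epas1), chr1:169655501-169695813 (Rgs5), chr6:142587862-142702766 (Abcc9) and chr19:34240336-34255585 (Acta2). The array values themselves carry no coordinates. A promoter entry was found for 8 of the 9 genes, all but Epas1. The 250 bases before the start of Abcb1a, Cxcl12 and Pltp, 3 of the 4 members called lower in naive TgS cortex, and of Slc2a1, are shown 5′ to 3′ on the gene's strand, from RefSeq GRCm38.p6 as the promoters of genes whose levels are described below; no test links these sequences to a difference in level. Capitals mark the GC box GGGCGG and the hypoxia response core ACGTG, each searched on both strands; neighbouring GC boxes can overlap.
Abcb1a, chr5:8566841-8567090, plus strand: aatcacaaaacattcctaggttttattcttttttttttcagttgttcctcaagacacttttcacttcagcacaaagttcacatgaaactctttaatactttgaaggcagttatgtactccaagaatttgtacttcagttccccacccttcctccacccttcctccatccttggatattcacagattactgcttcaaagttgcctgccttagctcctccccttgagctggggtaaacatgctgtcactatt
Cxcl12, chr6:117168285-117168534, plus strand: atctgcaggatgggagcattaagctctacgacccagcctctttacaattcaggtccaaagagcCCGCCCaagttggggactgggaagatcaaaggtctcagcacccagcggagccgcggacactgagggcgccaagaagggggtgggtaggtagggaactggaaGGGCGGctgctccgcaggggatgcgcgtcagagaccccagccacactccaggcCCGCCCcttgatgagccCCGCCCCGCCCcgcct
Pltp, chr2:164857709-164857958, minus strand: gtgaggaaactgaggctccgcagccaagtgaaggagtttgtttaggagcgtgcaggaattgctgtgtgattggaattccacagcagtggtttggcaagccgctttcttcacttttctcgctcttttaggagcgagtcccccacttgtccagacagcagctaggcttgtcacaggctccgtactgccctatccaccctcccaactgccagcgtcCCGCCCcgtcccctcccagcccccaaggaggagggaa
Slc2a1, chr4:119108495-119108744, plus strand: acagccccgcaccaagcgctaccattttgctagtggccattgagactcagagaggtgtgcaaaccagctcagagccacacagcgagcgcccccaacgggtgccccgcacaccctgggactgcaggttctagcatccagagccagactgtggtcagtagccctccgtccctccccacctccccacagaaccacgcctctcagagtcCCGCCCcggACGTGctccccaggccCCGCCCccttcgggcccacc
The Cxcl12 window held 5 GC boxes, that of Slc2a1 2, that of Pltp 1 and that of Abcb1a 0. Of 32851 promoter windows of the same length, 32.7% held at least 1 GC box. Among the 8 windows, ACGTG occurred in that of Slc2a1 alone, at 36 bases before the start; 16.6% of all windows held it. The ETS-type motif GGAAGT was searched as well, which none of the 8 windows held and 19.7% of all windows did. None of these 3 motifs was found in all of the Abcb1a, Cxcl12 and Pltp windows. Base composition differed as well: 40.4% of the Abcb1a window was G or C, against 57.6% for Pltp, 64.4% for Cxcl12 and 66.4% for Slc2a1. These matches describe letters in a window and not occupied sites.

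Naive PFC replicates 1 and 2 of all 3 strains, 6 arrays, stood apart from the other 23 and are followed separately throughout. In them Xist, the RNA of the inactive X chromosome, read 8.62 to 10.61 against 6.78 to 7.24 elsewhere, and the Y-linked Eif2s3y 3.42 to 3.83 against 8.41 to 9.20. Gdpd3 read 9.76 to 10.37 on the other FVB/N arrays and at most 6.40 on all TgS arrays but naive PFC replicate 2 (8.32), and it read 5.70 and 5.63 on FVB/N naive PFC replicates 1 and 2, at odds with their label. Other genes went with the label: on the same 2 arrays Erdr1 read 12.01 and 11.86 (TgS at most 11.11), Tnnt2 7.30 and 7.56 (TgS at most 5.83), Mocs2 10.69 and 10.67 (TgS at most 9.95) and Ighm 8.07 and 8.04 (TgS at least 9.63). Glo1 read 10.22 and 10.19 there (TgS at least 10.36). It does not separate the strains, as FVB/N MPTP CPu replicate 1 read 10.49. The regions stayed apart: Drd2 read 10.74 to 11.43 in the CPu and at most 8.16 in the PFC, and Neurod6 at least 9.57 in the PFC and at most 8.37 in the CPu. Within the PFC, however, Drd2 read 6.97 to 8.16 in naive replicates 1 and 2 and 6.25 to 6.69 in the other arrays. The mean log2 level of a list of striatal neuron genes was 9.20 to 10.29 in those replicates and 8.58 to 8.94 in the other PFC arrays. Whether this striatal signal has a part in the members' differences was not tested. Differences come from 1 limma fit to all 29 arrays (12 group means, and a term, the set term, for naive PFC replicates 3 and 4, whose source label is spelled differently), with Benjamini-Hochberg adjustment over all 22626 probe sets; "called" means an adjusted p under 0.05, and ± is the standard error of a log2 difference. In that fit the MPTP and regional comparisons of the PFC, as means over the 3 strains, rest on naive replicates 1 and 2. MPTP comparisons within a strain use all its naive PFC arrays, moved by a set term that the strains share. Such a fitted naive level need not match any array of that strain. Both kinds of comparison set arrays against each other that differ in these X- and Y-linked genes as well. A fit without those 6 arrays rests on replicates 3 and 4 instead and is given beside the main PFC results. Members also differed between the sets. By the set term, replicates 3 and 4 were lower than 1 and 2 by 0.94 ± 0.09 for Rgs5, 0.82 ± 0.16 for Cldn5, 0.71 ± 0.15 for Cxcl12 and 0.64 ± 0.10 for Pltp. They were lower by 0.53 ± 0.10 for Acta2, 0.42 ± 0.07 for Abcb1a and 0.22 ± 0.09 for Slc2a1, and higher by 0.38 ± 0.08 for Epas1. Of all probe sets 53.7% were called for the set term. It is 1 value for all strains, and the strains need not share it. For Cldn5 the shift in TgS minus that in FVB/N was -1.31 ± 0.22, and for TgR minus FVB/N -1.05 ± 0.22. The cause of the shifts was not tested.

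**Figure D1:**
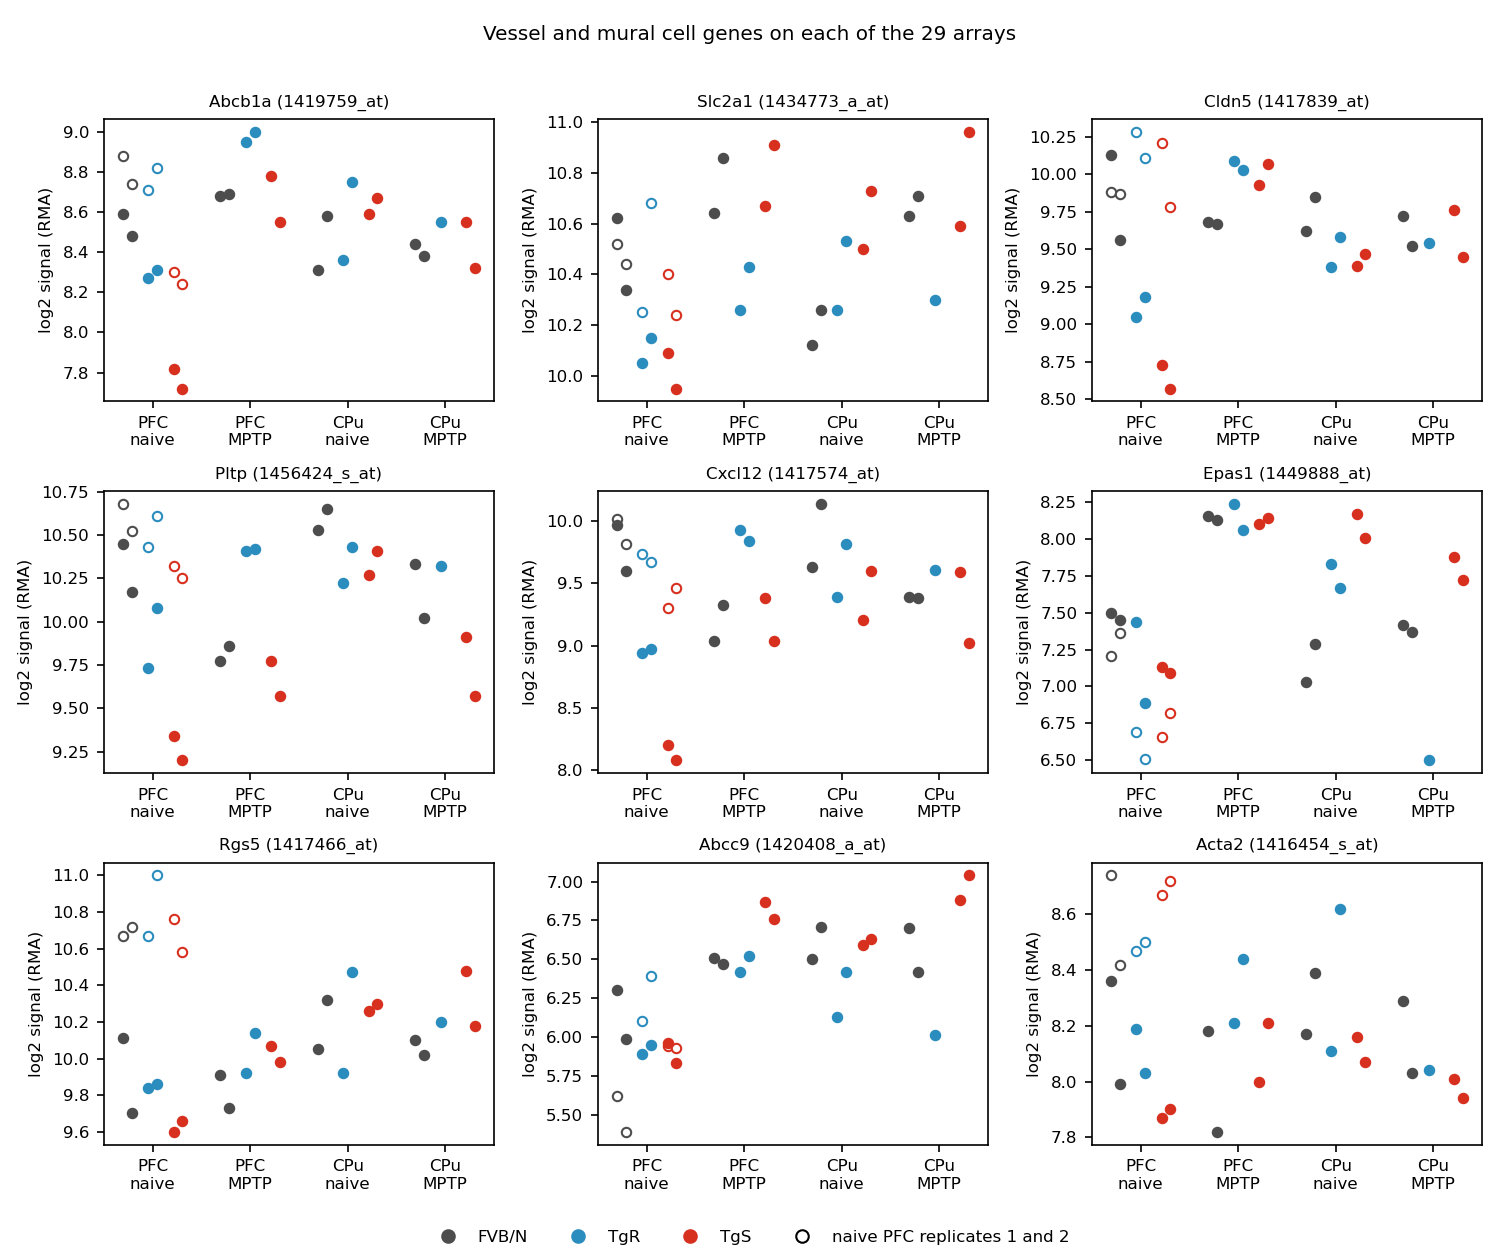
Log2 signal (RMA, vertical axes, which do not start at 0) of the 9 genes on each of the 29 arrays, by region and treatment, with 1 point per array, colours for the 3 strains and open circles for naive PFC replicates 1 and 2. TgS naive PFC replicates 3 and 4 are the lowest points of Abcb1a, Cldn5, Pltp, Cxcl12 and Rgs5, and every MPTP PFC array of Epas1 (8.06 to 8.24) lies above every naive PFC array (6.51 to 7.50).

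In the naive PFC, Abcb1a, Cxcl12, Pltp and Epas1 were lower in TgS than in FVB/N mice, by 0.46 to 1.09, and no member was higher. This comparison asks what the AChE-S transgene goes with in the unexposed cortex. The 4 called members are 4 of 9, where 10.9% of all probe sets were called in either direction, 4.4% higher and 6.52% lower. The members were chosen with earlier results of these data known, so a count above such a share, here and below, is no independent support. The median difference of the 9 genes was -0.46, against -0.01 over all probe sets. Without the 6 arrays 4 of 9 were again lower, with Cldn5 in place of Epas1, where 3.73% of all probe sets were called and 2.68% called lower.

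Abcb1a read 8.88, 8.74, 8.59 and 8.48 in FVB/N naive PFC replicates 1 to 4, and 8.30, 8.24, 7.82 and 7.72 in TgS. Every TgS array lay below every FVB/N array. The difference was -0.65 ± 0.08 (limma adjusted p = 0.000136, n = 4 and 4), and -0.76 ± 0.12 without the 6 arrays (adjusted p = 0.00122). Its second probe set, 1419758_at, was lower by 0.81 ± 0.10 (limma adjusted p = 0.000128). Fitted apart, replicates 1 and 2 gave -0.54 ± 0.11 and replicates 3 and 4 gave -0.77 ± 0.11, both called. The P-glycoprotein transcript was thus lower in TgS cortex in each set of arrays, and the sets were not called different (-0.22 ± 0.16, limma adjusted p = 0.388).

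Slc2a1 read 10.52, 10.44, 10.62 and 10.34 in FVB/N and 10.40, 10.24, 10.09 and 9.95 in TgS, and 1 TgS array lay above the lowest FVB/N array. Its representing probe set, at -0.31 ± 0.11, missed the threshold (limma adjusted p = 0.0816; 0.0439 with TgR naive PFC replicate 2 left out), while the other 2 were called, at -0.42 ± 0.10 for 1426599_a_at and -0.37 ± 0.08 for 1426600_at.

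Among the 9 representing probe sets, that of Cldn5 had the largest difference between the sets in this comparison. The FVB/N arrays read 9.88, 9.87, 10.13 and 9.56 and the TgS arrays 10.21, 9.78, 8.73 and 8.57. TgS replicates 3 and 4 lay below all FVB/N arrays, and replicates 1 and 2 within the FVB/N range or above it. TgR had the same pattern, at 10.28, 10.11, 9.05 and 9.18, and its difference from FVB/N also differed between the sets (-1.05 ± 0.22, limma adjusted p = 0.00462, where 16.4% of all probe sets differed). Over all arrays the difference was -0.54 ± 0.19 (limma adjusted p = 0.0771), with replicates 1 and 2 at 0.12 ± 0.16 and replicates 3 and 4 at -1.20 ± 0.16. The sets differed by -1.31 ± 0.22 (limma adjusted p = 0.000323), where 15.2% of all probe sets differed. Leaving out TgS naive PFC replicate 1 or FVB/N naive PFC replicate 2 brought the overall difference past the threshold (-0.72 without the former, limma adjusted p = 0.0346).

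Pltp read 10.68, 10.52, 10.45 and 10.17 in FVB/N and 10.32, 10.25, 9.34 and 9.20 in TgS, so 2 TgS arrays lay above the lowest FVB/N array. The difference was -0.68 ± 0.13 (limma adjusted p = 0.00373), and -1.04 ± 0.14 without the 6 arrays (adjusted p = 0.000395). The call was lost without the set term (adjusted p = 0.0969). Its other probe set, 1417963_at, was lower by 0.92 ± 0.17. Replicates 1 and 2 alone gave -0.32 ± 0.14, which did not pass (limma adjusted p = 0.103), and the sets differed by -0.72 ± 0.19 (adjusted p = 0.015).

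Cxcl12 had the largest difference of the 9 representing probe sets. Probe set 1417574_at read 10.02, 9.82, 9.97 and 9.60 in FVB/N, 9.74, 9.67, 8.94 and 8.97 in TgR, and 9.30, 9.46, 8.20 and 8.08 in TgS. All TgS arrays lay below all FVB/N arrays, and TgR lay between or overlapped both. TgS minus FVB/N was -1.09 ± 0.19 (limma adjusted p = 0.00206) and -1.64 ± 0.20 without the 6 arrays (adjusted p = 0.000179), with replicates 1 and 2 at -0.54 ± 0.20 (adjusted p = 0.0508). The sets differed by -1.10 ± 0.28 (adjusted p = 0.0098). The second Cxcl12 probe set, 1448823_at, showed none of this: it read 8.92 to 9.37 in FVB/N and 8.98 to 9.38 in TgS, a difference of 0.01 ± 0.09.

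**Figure D2:**
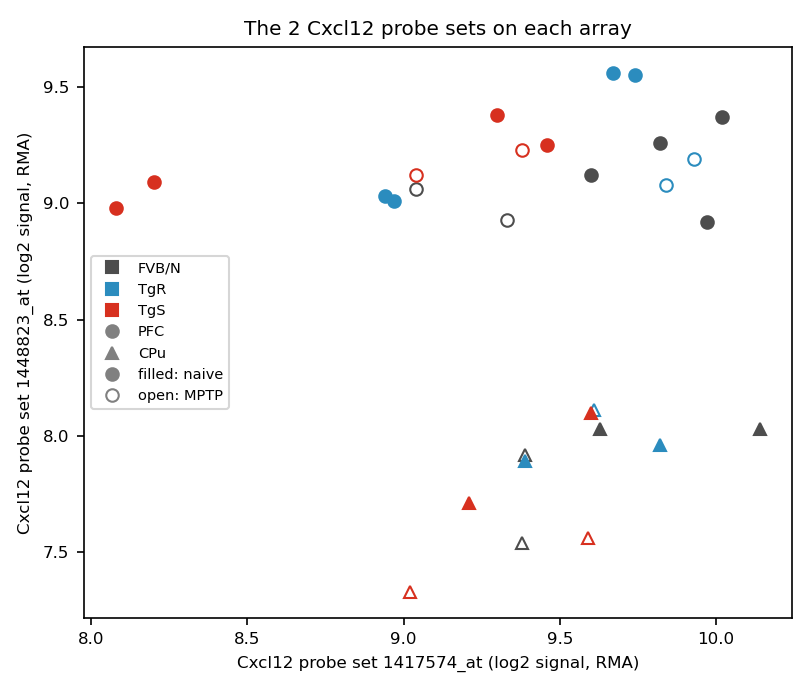
Log2 signal of the 2 Cxcl12 probe sets on each of the 29 arrays, one per axis, with colours for strain, circles for PFC, triangles for CPu, filled for naive and open for MPTP. Probe set 1448823_at separates the regions (7.33 to 8.11 in the CPu, 8.92 to 9.56 in the PFC) and 1417574_at separates TgS naive PFC replicates 3 and 4 (8.20 and 8.08) from all other arrays.

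The 2 Cxcl12 probe sets did not move together (r = -0.03 over 29 arrays), although RefSeq lists 3 curated transcripts of the gene and the platform annotation gives both the same symbol. Which transcript each reads was not tested. Among other genes of the chemokine's axis, the receptors Cxcr4 and Ackr3 and the protease Dpp4 (3 of 3 measured), none was called in TgS against FVB/N naive PFC: Cxcr4 differed by 0.11 ± 0.13 and Ackr3 by -0.08 ± 0.13.

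Epas1 read 7.21, 7.36, 7.50 and 7.45 in FVB/N naive PFC, 6.66, 6.82, 7.13 and 7.09 in TgS, and 6.69, 6.51, 7.44 and 6.89 in TgR. The TgS arrays lay below all FVB/N arrays, and only TgR replicate 3 reached into the FVB/N range. TgS minus FVB/N was -0.46 ± 0.10 (limma adjusted p = 0.0101) and -0.36 ± 0.13 without the 6 arrays, which was not called (adjusted p = 0.133), nor was the difference without the set term (adjusted p = 0.0948). The mural genes gave no call: Rgs5 differed by -0.15 ± 0.12 (its 1420941_at by 1.56 ± 0.52, limma adjusted p = 0.0594, with 3.21 ± 0.23 in replicates 1 and 2 and -0.08 ± 0.23 in replicates 3 and 4), Abcc9 by 0.09 ± 0.14 and Acta2 by -0.09 ± 0.12. For Abcc9 the sets went opposite ways (0.43 ± 0.13 in replicates 1 and 2, -0.25 ± 0.13 in replicates 3 and 4; limma adjusted p of the difference 0.0131), with FVB/N replicates 1 and 2 (5.62 and 5.39) the lowest of all arrays.

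Genes of an endothelial list were often lower as well, while few of the pericyte and smooth muscle lists were. The lists, like the members, were chosen with earlier results of these data known. Of 33 measured genes of an endothelial list, 14 were lower in TgS than in FVB/N naive PFC and 0 higher (median -0.21), where 6.52% of all probe sets were lower, and without the 6 arrays 19 were lower (median -0.41), where 2.68% were. The transcription factor gene Sox17 was lower by 0.80 ± 0.17, the organic anion transporter gene Slco1a4 by 0.50 ± 0.09 and Ramp2, a receptor subunit of adrenomedullin signalling, by 0.41 ± 0.07. Pericyte genes were called lower in 1 of 9 (2 without the 6 arrays) and smooth muscle genes in 1 of 10 (0). All list counts here are to be read against those shares. Of 15 meningeal fibroblast genes 2 were lower (6 without the 6 arrays), and of 10 astrocyte genes 3 (1), Gfap among them at -0.76 ± 0.16. Choroid plexus, blood, microglial, neuronal, striatal and cortical lists had 0 calls. The mean log2 level of the endothelial list was 7.78 and 7.81 in TgS naive PFC replicates 3 and 4, against 8.20 to 8.47 in the FVB/N naive PFC arrays and 8.38 to 8.50 in TgS replicates 1 and 2. In TgR replicates 3 and 4 it was 7.99 to 8.04, also below all FVB/N arrays. That of the meningeal list was 7.54 and 7.56 in TgS naive PFC replicates 3 and 4, 7.85 to 7.87 in TgR and 7.96 to 8.07 in FVB/N replicates 3 and 4. In replicates 1 and 2 it was 8.38 to 8.42 in TgS and 8.37 to 8.53 in FVB/N. The part of either list's level in the members' differences was not tested.

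Compared with TgR, TgS naive PFC was lower in 3 of 9 members, where 18.6% of all probe sets were called, 11.6% lower and 6.98% higher (4.79% and 3.14% without the 6 arrays). Abcb1a was lower by 0.51 ± 0.08, Cxcl12 by 0.57 ± 0.19 and Pltp by 0.44 ± 0.13 (limma adjusted p = 0.00106, 0.0376 and 0.0217), and all 3 were called without the 6 arrays as well, at -0.52, -0.81 and -0.64. The Cxcl12 and Pltp calls were lost when some single arrays were left out, among them TgS naive PFC replicates 3 and 4 and TgR naive PFC replicates 2 and 4, and without the set term (adjusted p = 0.214 and 0.243). Of the representing probe sets, TgR differed from FVB/N naive PFC in that of Epas1 alone, by -0.50 ± 0.10 (limma adjusted p = 0.0294, with 2.26% of all probe sets called), and Slc2a1's 1426600_at was lower by 0.40 ± 0.08. The Epas1 call was lost without the 6 arrays (-0.31 ± 0.13, adjusted p = 0.572), without the set term (0.189) and without any one of FVB/N or TgR naive PFC replicates 1 and 2.

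In the naive CPu, Epas1 was the 1 member of 9 called in TgS against FVB/N, and it was higher: 8.17 and 8.01 in TgS, 7.03 and 7.29 in FVB/N and 7.83 and 7.67 in TgR, with no overlap between strains. The difference was 0.93 ± 0.14 (limma adjusted p = 0.00125, n = 2 and 2), where 2.19% of all probe sets were called and 1.32% called higher; it missed the threshold without FVB/N naive CPu replicate 1 (0.80, adjusted p = 0.0555). TgR minus FVB/N, at 0.59 ± 0.14, was not called (limma adjusted p = 0.322). A probe set of Slc2a1, 1426600_at, was also higher in TgS (9.84 and 9.92 against 9.22 and 9.40; 0.57 ± 0.11, limma adjusted p = 0.00643), and the representing one gave 0.43 ± 0.16, not called. Cxcl12 read 9.21 and 9.60 in TgS and 9.63 and 10.14 in FVB/N, a difference of -0.48 ± 0.26 that did not pass.

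The strain difference itself differed between the regions for 2 of 9 members, where 1.02% of all probe sets did and 0.787% did in the lower direction. For Abcb1a, TgS minus FVB/N was 0.84 ± 0.14 lower in the naive PFC than in the naive CPu (limma adjusted p = 0.009), and for Epas1 1.38 ± 0.17 lower (adjusted p = 0.0019). The Abcb1a call was lost without FVB/N naive CPu replicate 1 or TgS naive CPu replicate 2 (-0.70 without the former). Without the set term both calls were lost (adjusted p = 0.323 and 0.0501). Without the 6 arrays, where 1.94% of all probe sets were called and 1.45% called lower, 5 members were called, all in the same direction: these 2 (-0.95 and -1.29), Cxcl12 (-1.17 ± 0.29), Cldn5 (-0.89 ± 0.21) and Slc2a1 (-0.88 ± 0.19).

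**Figure D3:**
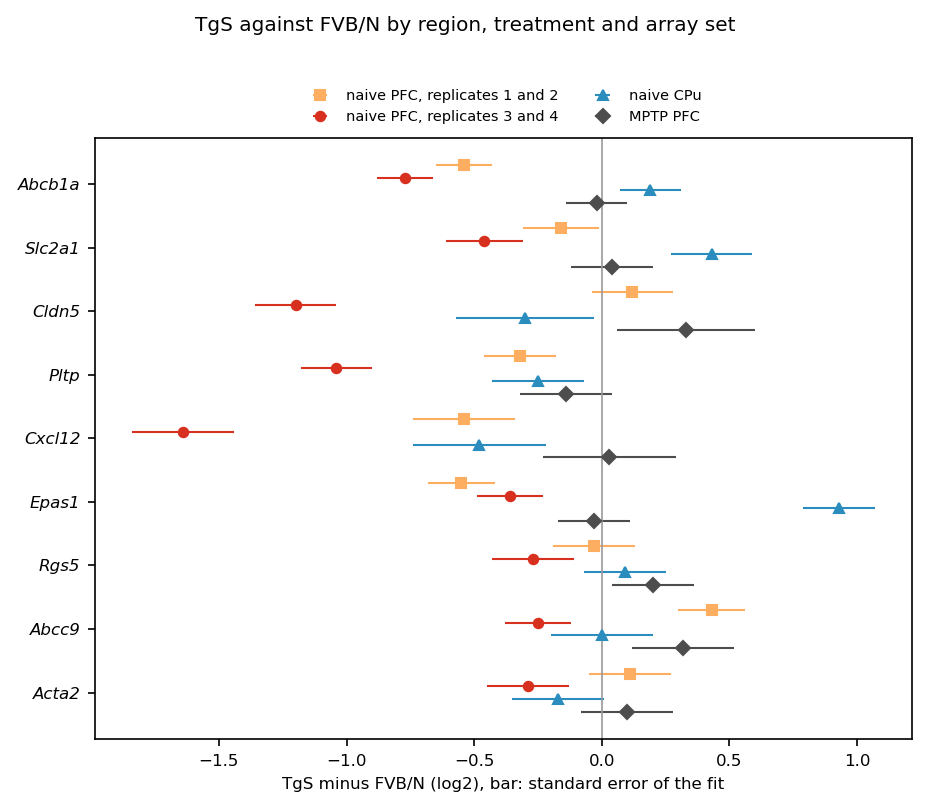
TgS minus FVB/N (log2, horizontal axis) for each of the 9 genes in naive PFC replicates 1 and 2, naive PFC replicates 3 and 4, naive CPu and MPTP PFC; points are fitted differences and bars their standard errors. Cxcl12, Cldn5, Pltp and Abcb1a lie lowest in naive PFC replicates 3 and 4 (-1.64, -1.20, -1.04 and -0.77), and Epas1 is lower in both naive PFC sets and higher in naive CPu (0.93).

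After MPTP no member was called between TgS and FVB/N. By limma, 0 of 9 members were called in TgS against FVB/N MPTP PFC, 0 had an unadjusted p under 0.05, and 0.362% of all probe sets were called. Abcb1a read 8.78 and 8.55 in TgS and 8.68 and 8.69 in FVB/N, and Cxcl12 9.38 and 9.04 against 9.04 and 9.33. Epas1 differed by -0.03 ± 0.14. In the MPTP CPu 0 of 9 were called as well (2 with an unadjusted p under 0.05, 0.694% of all probe sets called, 0.349% lower), with Pltp at -0.44 ± 0.18. A p that misses the threshold with 2 arrays a group does not show that the strains were equal.

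In the exposed PFC the TgR arrays of 7 members did not overlap those of FVB/N, 6 of them higher in TgR (Cxcl12, Pltp, Abcb1a, Cldn5, Acta2 and Rgs5) and Slc2a1 lower. With so few arrays in each group, such separation can easily arise by chance. The share of all probe sets without overlap was not counted, so the 7 cannot be weighed against it. Cxcl12 read 9.93 and 9.84 in TgR against 9.04 and 9.33 in FVB/N, Pltp 10.41 and 10.42 against 9.77 and 9.86 and Abcb1a 8.95 and 9.0 against 8.68 and 8.69. Cldn5 read 10.09 and 10.03 against 9.68 and 9.67, while the gaps of Acta2 and Rgs5 were narrow (lowest TgR array 8.21 and 9.92, highest FVB/N array 8.18 and 9.91). Slc2a1 read 10.26 and 10.43 in TgR against 10.64 and 10.86. None of the 9 was called in TgR against FVB/N MPTP PFC (4 had an unadjusted p under 0.05; 0.212% of all probe sets were called, 0.0663% higher). Against TgS, where 1.14% of all probe sets were called, 1 of 9 passed, Pltp: TgS was lower by 0.74 ± 0.18 (limma adjusted p = 0.0454; 0.0062 without the 6 arrays), and this call was lost without any one of the 4 arrays compared and without the set term (adjusted p = 0.633). Slc2a1's 1426600_at was higher in TgS than in TgR there, by 0.48 ± 0.11.

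Averaged over the 4 region and treatment groups, Pltp was the 1 member called in TgS against FVB/N (-0.38 ± 0.08, limma adjusted p = 0.0109, with 3.97% of all probe sets called, 1.73% higher and 2.24% lower), a call lost without the set term (adjusted p = 0.303). Without the 6 arrays 4 were called: Pltp (-0.47), Cxcl12 (-0.54), Cldn5 (-0.30) and Epas1 (0.24). The share of all probe sets called rose as well, to 11.6% (6.6% higher and 5% lower). TgS against TgR had 6 of 9 called (12.8% of all probe sets, 4.57% higher and 8.27% lower), with Abcb1a, Cxcl12 and Pltp lower by 0.21 ± 0.06, 0.44 ± 0.13 and 0.44 ± 0.09, and Abcc9, Epas1 and Slc2a1 higher by 0.37 ± 0.10, 0.41 ± 0.07 and 0.26 ± 0.08. The same number and directions were called without the 6 arrays, where 17.9% of all probe sets were called (8.12% higher and 9.76% lower). Leaving out TgS MPTP CPu replicate 2, or the set term, left 2. TgR against FVB/N had 0 of 9 called by limma (2 with an unadjusted p under 0.05, 2.63% of all probe sets called, 1.45% higher and 1.18% lower).

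MPTP went with higher Epas1 and Abcc9 in the PFC of the exposed mice, whichever naive arrays were compared. After MPTP the FVB/N arrays of Epas1 read 8.16 and 8.13, the TgS arrays 8.10 and 8.14 and the TgR arrays 8.24 and 8.06, against 6.51 to 7.50 over the 12 naive arrays. No exposed array overlapped a naive one. The difference, averaged over strains, was 1.26 ± 0.08 (limma adjusted p = 8.02e-10), a 2.4-fold signal, and 0.89 ± 0.08 without the 6 arrays (adjusted p = 2.21e-07). Each strain's own difference was called, with FVB/N at 0.95 ± 0.13, TgS at 1.38 ± 0.13 and TgR at 1.46 ± 0.13.

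For Abcc9 the exposed FVB/N arrays read 6.51 and 6.47, the TgS arrays 6.87 and 6.76 and the TgR arrays 6.42 and 6.52, and 5.39 to 6.39 in the naive PFC. Again no exposed array overlapped a naive one. The mean difference was 0.70 ± 0.12 (limma adjusted p = 5.77e-05), and 0.60 ± 0.07 without the 6 arrays (adjusted p = 3e-06). By strain, the FVB/N difference of 0.71 ± 0.18 and the TgS difference of 0.95 ± 0.18 were called, and that of TgR was not (0.43 ± 0.18, limma adjusted p = 0.0625), where it was called without the 6 arrays (0.55 ± 0.12). The FVB/N call was lost without either exposed FVB/N array, and without the 6 arrays (0.34 ± 0.12, limma adjusted p = 0.052). Of 3 other genes of this channel type, the pore subunit gene Kcnj11 was higher by 0.49 ± 0.10 and Abcc8 by 0.26 ± 0.07 (0.53 and 0.09 without the 6 arrays, the latter not called), while Kcnj8, the pericyte pore subunit, differed by -0.09 ± 0.06.

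These 2 calls stand in a comparison with very many: 60.9% of all probe sets were called between MPTP and naive PFC (22.9% higher, 38% lower), and 50.5% without the 6 arrays (28.5% higher, 22% lower). The members' counts, 3 higher and 3 lower of 9, and 6 higher and 0 lower without the 6 arrays, are to be read against those shares. The labels do not say which naive set was handled together with the exposed PFC arrays. In Xist and the Y-linked Eif2s3y, naive replicates 3 and 4 read like the exposed PFC arrays, and replicates 1 and 2 did not.

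For most of the other members the call depended on which naive arrays were used. Rgs5 read 9.73 to 10.14 after MPTP, 10.58 or more in naive replicates 1 and 2 and 9.60 to 10.11 in naive replicates 3 and 4. It was therefore lower by 0.77 ± 0.09 over all arrays (limma adjusted p = 1.72e-06) and differed by 0.16 ± 0.09 without the 6 (adjusted p = 0.149). Acta2 (-0.44 ± 0.10, then 0.09 ± 0.09) and Pltp (-0.50 ± 0.10, then 0.14 ± 0.08) did likewise. Without the set term none of these 3 was called (Rgs5 -0.31, Pltp -0.18 and Acta2 -0.18). Cldn5 read 9.67 to 10.09 after MPTP, 9.78 to 10.28 in naive replicates 1 and 2 and 8.57 to 10.13 in naive replicates 3 and 4, which gave -0.11 ± 0.16, not called, and 0.71 ± 0.09, called. Cxcl12 went from -0.24 ± 0.15, not called, to 0.47 ± 0.12, called. Abcb1a was higher in both fits (0.16 ± 0.07, limma adjusted p = 0.049, and 0.58 ± 0.07, adjusted p = 4.37e-06), though the first call was lost on leaving out any one of 18 of the 29 arrays, FVB/N naive PFC replicate 2 among them (0.12). Slc2a1 missed the threshold with all arrays (0.21 ± 0.09) and was called without the 6 arrays (0.43 ± 0.08), without replicates 3 and 4 instead (0.21, limma adjusted p = 0.0495) and without the set term (0.32, adjusted p = 0.00955). Its other 2 probe sets were called with all arrays and without the 6, 1426600_at at 0.59 ± 0.06 and 1426599_a_at at 0.31 ± 0.08.

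**Figure D4:**
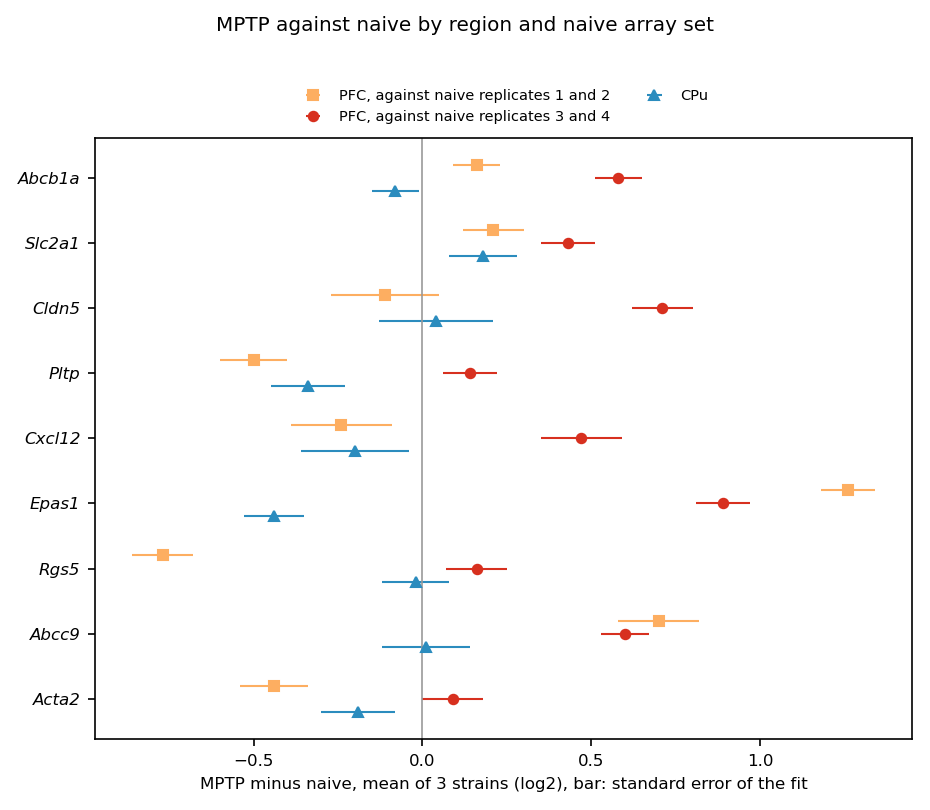
MPTP minus naive (log2, horizontal axis, mean of the 3 strains) for each of the 9 genes in the PFC against naive replicates 1 and 2, in the PFC against naive replicates 3 and 4, and in the CPu; points are fitted differences and bars their standard errors. Epas1 (1.26 and 0.89) and Abcc9 (0.70 and 0.60) lie to the right in both PFC comparisons and not in the CPu, while Rgs5, Pltp and Acta2 change side between the PFC comparisons.

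The counts of the vessel lists also depended on the naive arrays used. Of 33 endothelial genes 8 were higher and 5 lower after MPTP in the PFC, where 22.9% of all probe sets were higher and 38% lower, and 25 higher and 1 lower without the 6 arrays, where 28.5% and 22% were. Esam (0.34 ± 0.06, then 0.66 ± 0.05) and Pecam1 (0.49 ± 0.09, then 0.79 ± 0.07), both endothelial adhesion genes, were higher in both. Pericyte genes went from 0 higher and 4 lower of 9 to 5 higher and 0 lower, and smooth muscle genes from 0 and 7 of 10 to 1 and 1. Meningeal genes went from 0 higher and 7 lower of 15 to 10 and 1, and are to be read, like the pericyte and smooth muscle counts, against the same shares. Their mean log2 level was 8.37 to 8.78 in naive replicates 1 and 2, 7.54 to 8.07 in naive replicates 3 and 4 and 7.96 to 8.39 after MPTP. Their part in the members' differences was not tested.

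Of 15 hypoxia-related genes 3 were higher and 5 lower with all arrays, near the shares over all probe sets (22.9% and 38%), and 7 and 3 without the 6 (28.5% and 22%). Vegfa, the vascular growth factor, was higher in both (0.69 ± 0.05 and 0.30 ± 0.05), as was the stress-response gene Ddit4 (0.81 ± 0.13 and 0.83 ± 0.10). Of 5 efflux transporter genes other than Abcb1a 2 were higher, Abcc5 at 0.90 ± 0.08 and Abcc1 at 0.20 ± 0.08, and 3 without the 6 arrays. Abcb1b, the paralog, differed by 0.13 ± 0.07 and was not called.

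Within strains, the FVB/N fit called 6 of 9 members, that of TgS 7 and that of TgR 2, against 2, 7 and 6 without the 6 arrays. In FVB/N, Cxcl12 was lower after MPTP by 1.02 ± 0.24 (limma adjusted p = 0.0046; -0.60 ± 0.20 without the 6 arrays, adjusted p = 0.0509; and not called without FVB/N MPTP PFC replicate 1), and Pltp by 0.96 ± 0.16 (-0.50 ± 0.14, adjusted p = 0.0217). In TgS, Abcb1a was higher by 0.44 ± 0.11 (0.89 ± 0.12 without the 6 arrays), a call that was lost without TgS MPTP PFC replicate 1, and Slc2a1 by 0.51 ± 0.15, lost without TgS MPTP PFC replicate 2. Pltp in TgS turned from -0.43 ± 0.16 to 0.40 ± 0.14 without the 6 arrays. Without the set term the FVB/N calls of Cxcl12, Pltp and Abcc9 and the TgS call of Pltp were lost (limma adjusted p = 0.309, 0.215, 0.0536 and 0.818). The differences were then -0.67, -0.64, 0.66 and -0.11. With the set term, which the strains share, the fitted FVB/N naive levels of Cxcl12 and Pltp lay above every FVB/N naive PFC array. The -1.02 and -0.96 are therefore larger than the arrays themselves show. These within-strain comparisons called 25.5% (FVB/N), 40.6% (TgS) and 43.7% (TgR) of all probe sets, and 18.9%, 37.1% and 22.5% without the 6 arrays. The difference of the responses, TgS minus FVB/N, was called for 0 of 9 members by limma, although 5 had an unadjusted p under 0.05 (0% of all probe sets called; Cxcl12 1.12 ± 0.32, Abcb1a 0.63 ± 0.14). Without the 6 arrays it was called for Cxcl12 (1.67 ± 0.29, limma adjusted p = 0.015) and Cldn5 (1.52 ± 0.21, adjusted p = 0.00357), with 0.645% of all probe sets called. The response and the naive strain difference share the same naive arrays, so these are not separate results. The same difference for TgR minus FVB/N called 0 of 9 by limma (4 with an unadjusted p under 0.05, 0.00442% of all probe sets called).

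In the CPu, 1 of 9 members was called between MPTP and naive arrays averaged over strains, Epas1, lower by 0.44 ± 0.09 (limma adjusted p = 0.0143, with 1.43% of all probe sets called and 0.544% called lower). It rested on a single array: Epas1 read 6.50 on the TgR MPTP array, against 7.83 and 7.67 in naive TgR, while FVB/N read 7.42 and 7.37 against 7.03 and 7.29 and TgS 7.88 and 7.72 against 8.17 and 8.01. The difference was -1.25 ± 0.17 in TgR (limma adjusted p = 0.00494, n = 1 and 2), a call lost without TgR naive CPu replicate 1 or without the set term (adjusted p = 0.209), and neither 0.23 ± 0.14 in FVB/N nor -0.29 ± 0.14 in TgS was called. With 1 array in that group, every test on it takes its spread from the other groups and assumes that this array varies like them. The mean over strains also lost its call without FVB/N naive CPu replicate 2, TgS MPTP CPu replicate 2 or TgR naive CPu replicate 1, and without the set term (adjusted p = 0.208). On the same array Epas1 was lower than in FVB/N by 0.89 ± 0.17 and than in TgS by 1.30 ± 0.17 after MPTP (limma adjusted p = 0.0138 and 0.000689; 1.04% and 1.07% of all probe sets called, 0.667% lower in TgR than FVB/N, and 0.46% higher and 0.614% lower in TgS than TgR), the former lost without either exposed FVB/N array or the set term, and Abcc9 read 6.01, the lowest of the CPu. TgR minus FVB/N of the response in the CPu was -1.48 ± 0.23 for Epas1 (limma adjusted p = 0.00543, 0.155 without the set term, 0.181% of all probe sets called).

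Slc2a1 read 10.63 and 10.71 after MPTP and 10.12 and 10.26 before it in FVB/N CPu. Its probe set 1426600_at read 10.02 and 9.98 against 9.22 and 9.40 and was called, at 0.69 (limma adjusted p = 0.00593, with 0.265% of all probe sets called), while the representing one, at 0.48 ± 0.16, was not. Pltp differed on average by -0.34 ± 0.11, which missed the threshold with all arrays (limma adjusted p = 0.169) and passed without either naive PFC set (0.0356 without replicates 1 and 2, 0.0293 without 3 and 4). Averaged over strains in the CPu, microglial genes were higher in 5 of 9 and meningeal genes lower in 7 of 15. Endothelial genes were 1 higher and 1 lower of 33. Of all probe sets 0.884% were called higher and 0.544% lower in that comparison.

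The MPTP difference was larger in the PFC than in the CPu for Epas1, by 1.70 ± 0.12 (limma adjusted p = 1.61e-08; 1.32 ± 0.11 without the 6 arrays), and for Abcc9, by 0.68 ± 0.17 (adjusted p = 0.00408; 0.59 ± 0.10). In all 43.3% of probe sets were called here, and 32.5% without the 6 arrays. The CPu side of these differences includes the single exposed TgR CPu array. On it Epas1 read 6.50 and Abcc9 6.01, each the lowest of the CPu. Rgs5 was called in the other direction, at -0.75 ± 0.14, and not without the 6 arrays, where it was 0.19 ± 0.13.

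Between regions, the difference of exposed arrays is estimated without naive arrays. Its standard error and p-value still take the spread from all groups, the naive PFC among them. After MPTP, Abcb1a was higher in the PFC than in the CPu by 0.31 ± 0.07 (limma adjusted p = 0.00197) and Epas1 by 0.91 ± 0.09 (adjusted p = 8.99e-08), with Epas1 at 8.06 to 8.24 against 6.50 to 7.88 and no overlap. That makes 2 of 9 higher and 0 lower, where 43% of all probe sets were called and 19.7% called higher. In the exposed CPu mean the single TgR array, with Epas1 at 6.50, weighs as much as the arrays of each other strain together. Cldn5 differed by 0.32 ± 0.17, not called with all arrays and called without either naive PFC set (limma adjusted p = 0.00713 without replicates 1 and 2, 0.00435 without 3 and 4). The Abcb1a call was lost without the set term (limma adjusted p = 0.0663).

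In naive mice the regional difference turned with the set. With all arrays Rgs5 (0.51 ± 0.09), Cldn5 (0.47 ± 0.16) and Acta2 (0.33 ± 0.10) were higher in the PFC and Epas1 (-0.79 ± 0.08) and Abcc9 (-0.60 ± 0.12) lower (without the set term only the last 2 were called), where 60.1% of all probe sets were called, 34.9% higher and 25.2% lower. Without the 6 arrays 8 of 9 were lower and 0 higher, where 53.2% were called and 29.4% called lower. Epas1 (-0.42 ± 0.08) and Abcc9 (-0.51 ± 0.07) were lower in the naive PFC in both. Cxcl12 again divided by probe set: 1448823_at was higher in the PFC by 1.44 ± 0.07 in naive (1.07 ± 0.07 without the 6 arrays) and 1.34 ± 0.08 in exposed mice (limma adjusted p = 6.46e-12 and 7.43e-11), with no overlap between the regions, while 1417574_at differed by 0.04 ± 0.15 and -0.01 ± 0.16. Meningeal genes moved with this, at 12 of 15 higher in naive PFC (median 0.95; 7 higher and 1 lower without the 6 arrays, median 0.17) and 14 of 15 in exposed PFC (median 0.69), and choroid plexus genes were lower in 8 of 9 in both. Their part in the regional differences was not tested.

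Probe sets of 1 gene did not always read alike. The 3 of Slc2a1 (r = 0.87 to 0.96 over 29 arrays), the 2 of Pltp (0.92) and the 2 of Abcb1a (0.74) moved together. Those of Acta2 did so weakly (0.29), with 1456658_at at 4.21 to 4.90. The 4 of Rgs5 did not (r = -0.36 to 0.34), and 1420941_at read 10.31 and 10.35 in TgS naive PFC replicates 1 and 2 against 5.90 to 8.18 on all other arrays, while 1417466_at did not single out those 2 arrays. The direction of the Rgs5 and Cxcl12 differences therefore holds for the named probe set only.

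Over the 29 arrays, which share groups and the array set, Cxcl12 and Pltp were the most alike of the members (r = 0.88; 0.83 after removing group means and the set), followed by Abcb1a and Cxcl12 (0.79) and by Rgs5 and Acta2 and Cxcl12 and Cldn5 (0.76 each). For Epas1 r was -0.39 with Rgs5, -0.33 with Acta2 and highest with Abcc9, at 0.55, which turned to -0.48 after removing group means and the set. Among all other genes, the one most like Cxcl12 was Tek (r = 0.91), the endothelial angiopoietin receptor, which was also the most like Abcb1a (0.85) and the third most like Pltp (0.84). Cldn5 was nearest to Tie1 (0.89), Cd93 (0.87) and Nos3 (0.87), all endothelial genes, and Slc2a1 to Xdh (0.86), Tgm2 (0.82) and Pglyrp1 (0.81). Rgs5 was nearest to Slc12a4, Snx18 and Fam117b (0.88, 0.88 and 0.87), Abcc9 to Prpf3, Ddit4 and Ptpn22 (0.84, 0.83 and 0.82), Acta2 to Dnajc27 and Loxl1 (0.81 and 0.77), and Epas1 to Adar, Cabp7 and Clcn6 (0.87, 0.86 and 0.85). These are descriptions over arrays with no test.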

How the data were processed

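Total RNA of 29 tissue samples was read on Affymetrix mouse arrays with 22690 probe sets. The authors deposited log2 signals summarised by RMA, with Affymetrix Expression Console and Power Tools named as software per the submitters' processing notes, which state neither version nor setting here. RMA brings arrays to a common distribution, so a shift of all genes together would not be seen, and low signals are compressed. Groups come from the sample labels. After 64 control probe sets were left out, 22626 were fitted with limma 3.58.1 in R 4.3.3: 12 group means and a term for naive PFC replicates 3 and 4 (16 residual degrees of freedom), with Benjamini-Hochberg adjustment over all probe sets and a threshold of 0.05. Platform annotation gave 1 symbol to 20380 probe sets, several to 691 and none to 1555; genes were named from the first kind, and the probe set with the highest mean stands for a gene. The scripts were tested on simulated data.

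The genes described are all 9 members; genes that are no members are named from the lists and as the 3 most alike over arrays. The members and lists were chosen with earlier results of these data known. Alternatives were no set term, a replicate block, fits without the 6 naive PFC arrays numbered 1 and 2, each region alone, quantile normalization, the lowest 0.25 of probe sets left out, trended and robust variance, the mean of a gene's probe sets, and each array left out; the fit without replicates 3 and 4, that of 15 means, and the TgR minus FVB/N responses were added after the values were seen. The number of arrays limits the precision. Correlations of same-numbered naive PFC samples (0.19 to 0.61) were no higher than those of differently numbered samples of the same set (0.28 to 0.68), so the numbers were not taken as pairs.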

Additional observations from a re-analysis of the deposited data

Results flagged for a closer look

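There were 6 results that were differences between groups under the same contrast, each tested by an interaction in limma over all probe sets. The MPTP difference was larger in the PFC than in the CPu for Epas1, by 1.70, and for Abcc9, by 0.68, and both kept the call without the 6 naive PFC arrays numbered 1 and 2 (1.32 and 0.59). For Rgs5 it was lower in the PFC, at -0.75, which was not called without those arrays (0.19, adjusted p = 0.308). TgR minus FVB/N of the MPTP difference in the CPu was -1.48 for Epas1 and rests on a single exposed TgR array. That array is also part of the CPu side of the 1.70, 0.68 and -0.75. TgS minus FVB/N was lower in the naive PFC than in the naive CPu for Abcb1a, at -0.84, and for Epas1, at -1.38; the Abcb1a call was lost without FVB/N naive CPu replicate 1 (adjusted p = 0.12). Without the set term these last 2 were not called (adjusted p = 0.323 and 0.0501), nor were the Rgs5 difference (0.582) and the -1.48 for Epas1 (0.155). No sample of a naive PFC group lay past Dixon's critical value in 54 tests of groups of 4, where chance gives about 1 in 20. Each such group holds 2 arrays of each naive set, and 2 arrays shifted together escape a test for a single outlier. The test therefore cannot show that the arrays of a group were alike.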

How the results depend on the processing

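Without the 6 naive PFC arrays numbered 1 and 2, 229 of 279 member results kept their direction and side of the threshold and 22 turned. PFC minus CPu in naive mice became -0.35 for Abcb1a, -0.67 for Cxcl12, -0.59 for Pltp, -0.42 for Rgs5, -0.20 for Acta2, -0.34 for Cldn5 and -0.20 for Slc2a1. MPTP minus naive PFC became 0.47 for Cxcl12, 0.14 for Pltp, 0.16 for Rgs5, 0.09 for Acta2 and 0.71 for Cldn5; in TgS 0.40 for Pltp, 0.40 for Rgs5 and 0.22 for Acta2; and in TgR 0.51 for Pltp, 0.18 for Rgs5 and 0.94 for Cldn5. The MPTP difference in PFC minus CPu became 0.66 for Cxcl12, 0.48 for Pltp, 0.19 for Rgs5 and 0.67 for Cldn5. With the mean of a gene's probe sets 3 turned: Cxcl12 in PFC minus CPu after MPTP (0.67), Rgs5 after MPTP in TgR PFC (0.17) and Rgs5 in the MPTP difference between regions (0.13). The cause was not tested.

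Counts of called members moved as follows. The share of all probe sets called moves between fits as well. It is given here for the fit without replicates 1 and 2 only, so the other counts cannot be weighed against it. Without the set term they were 2 and 1 for PFC minus CPu in naive and exposed mice, 2 for TgS minus FVB/N, 0 for TgR minus FVB/N and 1 for TgS minus TgR in naive PFC, 0 and 2 for the means of TgS minus FVB/N and TgS minus TgR, and 0 for MPTP in the CPu. Without replicates 1 and 2 they were 8 for PFC minus CPu in naive mice, 0 for TgR minus FVB/N naive PFC, 4 and 1 for the means of TgS and TgR minus FVB/N, and 2 for MPTP in the CPu. Of all probe sets 53.2%, 0.0486%, 11.6%, 4.73% and 4.54% were called in these comparisons, in that order. Without replicates 3 and 4, an alternative added after the values were seen, they were 2 for TgR minus FVB/N and 1 for TgS minus TgR naive PFC, 3 and 1 for the same means, and 2 for MPTP in the CPu. The PFC alone gave 0 for TgR minus FVB/N naive PFC, and the mean of probe sets gave 2 for TgS minus FVB/N naive CPu and 1 for the mean of TgR minus FVB/N.

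With each array left out in turn, the counts ran from 5 to 5 for PFC minus CPu in naive mice and 2 to 4 in exposed mice, 4 to 5 for TgS minus FVB/N, 0 to 2 for TgR minus FVB/N and 1 to 3 for TgS minus TgR in naive PFC, 0 to 1 for TgS minus FVB/N naive CPu, 0 to 0 for TgS minus FVB/N after MPTP in either region, 1 to 2, 0 to 1 and 2 to 6 for the means of TgS minus FVB/N, TgR minus FVB/N and TgS minus TgR, 5 to 7 for MPTP in the PFC and 0 to 1 in the CPu. Leaving out the single exposed TgR CPu array gives no value for comparisons that need it. The share of all probe sets called is not given for the fits with an array left out, so their counts cannot be weighed against it. A replicate block in place of the set term left 272 of 279 results on their side of the threshold, with 4 weaker, 3 stronger and 0 reversed, and the count of called members within 1.5 times; the numbers share only a set. Quantile normalization left 276, trended and robust variance 278 and leaving out the lowest probe sets 279.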
